A study of Homo sapiens with 2 samples.

Results

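miR-151a is a microRNA (miRNA) made from a hairpin in an intron of PTK2, the gene of focal adhesion kinase. Its arms, hsa-miR-151a-3p and hsa-miR-151a-5p (miR-151a-3p and miR-151a-5p below), and the closely related miR-151b were followed here in exosomes, the small vesicles that cells release, from liver cancer cell lines. Members were taken by name: every mature miRNA in the count table whose name without the arm is miR-151a or miR-151b. This gave 3 of 793 listed miRNAs. The hairpin was selected on its read counts in these 2 libraries, where the 3p arm is among the most abundant, so all differences between the libraries are given as descriptions, without a test. The lines were MHCC97H, known for its strong tendency to metastasize, and HepG2, a widely used and less invasive liver cancer line; the labels give hepatocellular carcinoma for both. Neither line carried a labelled treatment or genetic change. Both grew in DMEM with exosome-free serum, and the vesicles were spun out of the medium by ultracentrifugation. Each line gave 1 library, so cell line, culture and library preparation cannot be told apart.

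A miRNA hairpin is cut into a short duplex, and as a rule 1 strand is kept in the silencing complex while its partner is degraded. The strand from the left arm is called 5p and that from the right arm 3p. The miR-151a hairpin belongs with those of miR-28 and miR-708 to a family derived from an ancient LINE-2 transposable element.

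The mature sequences of 3 of the 4 relatives that the table lists, from RefSeq (GRCh38.p14), are shown to place the family. MIR28 lies on chromosome 3 (188688781 to 188688866, plus strand) in an intron of LPP, and MIR708 on chromosome 11 (79402022 to 79402109, minus strand) in an intron of TENM4. The sequences run 5′ to 3′, and capitals mark the seed, bases 2 to 8, which pairs with target RNAs.
miR-28-3p: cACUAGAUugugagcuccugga
miR-708-3p: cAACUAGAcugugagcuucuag
miR-708-5p: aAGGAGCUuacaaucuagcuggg
The 3p arms of miR-28 and miR-708 differ by 5 single-base edits and share a run of 8 bases, but their seeds are offset by 1 base and are not equal. Among the listed miRNAs with a mature entry in RefSeq's table, no other has the seed of miR-28-3p or miR-708-3p. The seed of miR-708-5p is also that of miR-3139. miR-28-5p has no mature entry there, so the 5p seeds of the family were not compared.

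The MIR151A hairpin lies on chromosome 8 (140732564 to 140732653, minus strand, GRCh38, GENCODE release 29). It sits inside PTK2 (140657900 to 141002216), on the same strand. It is spanned by 16 annotated PTK2 transcripts and overlaps an exon in 0 of them, so it is intronic throughout. MIR151B lies on chromosome 14 (100109419 to 100109514, minus strand), within EVL but on the opposite strand, and overlaps no EVL exon. The chromosome band 8q24, which holds PTK2, is often gained in hepatocellular carcinoma.

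The table gave 304457 miRNA reads for MHCC97H and 22831 for HepG2. On the CPM scale, where each library's miRNA reads are brought to the same sum, 1 read counts as 3.28 CPM in MHCC97H and 43.8 CPM in HepG2. The liver-specific miR-122-5p was present in both, with 298 reads (979 CPM) in MHCC97H and 24 reads (1051 CPM) in HepG2. Over a list of 5 hepatocyte miRNAs the summed level was 30661 CPM in MHCC97H and 158162 CPM in HepG2, and miR-885-5p had 0 reads in MHCC97H, which allows up to 9.85 CPM. Most of the hepatocyte sum was miR-148a-3p, at 26976 CPM in MHCC97H and 142438 CPM in HepG2. Also higher in HepG2 were miR-192-5p (2404 CPM in MHCC97H and 10775 CPM in HepG2) and miR-194-5p (302 CPM in MHCC97H and 3548 CPM in HepG2). The red cell list summed to 12310 CPM in MHCC97H and 25317 CPM in HepG2. In it, only miR-451a was higher in HepG2 (2716 CPM in MHCC97H and 20104 CPM in HepG2). miR-486-5p had 8313 CPM in MHCC97H and 4205 CPM in HepG2, and the ratio intervals of miR-144-3p and miR-144-5p included 1. The leukocyte list summed to 2204 CPM in MHCC97H and 5168 CPM in HepG2. Its member miR-142-3p had 191 CPM in MHCC97H and 2584 CPM in HepG2, and the ratio intervals of the rest included 1. The endothelial list summed to 6507 CPM in MHCC97H and 7227 CPM in HepG2, and the mesenchymal list to 20850 CPM in MHCC97H and 24791 CPM in HepG2. Of the endothelial pair, miR-126-5p had 197 CPM in MHCC97H and 1139 CPM in HepG2, and the ratio interval of miR-126-3p included 1. Of the mesenchymal list, only miR-145-5p differed at least 2-fold with a ratio interval that excluded 1 (6 reads in MHCC97H and 3 in HepG2). The muscle list summed to 5285 CPM in MHCC97H and 394 CPM in HepG2. Of the 18 miRNAs on these other 5 lists, those at 0 reads were miR-206 and miR-133a-3p, both in HepG2. The part of these differences in the results below was not tested.

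miR-151a-3p was among the most abundant miRNAs of both libraries and was higher in MHCC97H exosomes. It had 13681 reads in MHCC97H, which is 44936 CPM or 4.49% of miRNA reads (95% exact interval 4.42 to 4.57%). In HepG2 it had 316 reads, which is 13841 CPM or 1.38% (1.24 to 1.54%). The intervals of the libraries did not overlap. At the share seen in MHCC97H, the HepG2 library would have held 1026 reads of it in place of 316. The CPM ratio of MHCC97H over HepG2 was 3.25 (95% interval 2.90 to 3.64). Intervals cover counting error only, since there is no replicate library. More vesicles that carry the miRNA and more copies per vesicle cannot be told apart here.

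miR-151a-5p was scarce in both libraries. It had 151 reads (496 CPM, 95% interval 420 to 582) in MHCC97H and 6 reads (263 CPM, 96.4 to 572) in HepG2, and these intervals overlapped. The ratio of MHCC97H over HepG2 was 1.89 with an interval of 0.85 to 5.22, so neither equal levels nor a 5-fold excess could be told from the value at this depth. The lower end in HepG2, 96.4 CPM, is also under 162 CPM, the upper end of the same interval for a count of 0 in that library.

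miR-151b stood in the table as 2 entries that were not equal. One had 150 reads in MHCC97H and 6 in HepG2, 1 read away from miR-151a-5p in MHCC97H and equal to it in HepG2. The other had 26 reads in MHCC97H and 0 in HepG2. The mature miR-151b is contained in that of miR-151a-5p, so reads under these names cannot be assigned to chromosome 8 or chromosome 14, and the names do not give independent measurements. By its higher entry, miR-151b was at 493 CPM in MHCC97H and 263 CPM in HepG2 (ratio 1.87, 0.84 to 5.19).

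A miRNA was called higher in a library when it differed at least 2-fold and the 95% interval of the ratio excluded 1. By this rule 1 of the 3 members, miR-151a-3p, was higher in MHCC97H and 0 were higher in HepG2. Over all 543 miRNAs that reached 10 CPM in either library, 20.4% were called higher in MHCC97H and 9.02% in HepG2. Many of the 543 have few HepG2 reads. Of the 117 with 10 or more reads in each library, 40 were called higher in MHCC97H. A call in the direction of MHCC97H is thus common in this table. All 3 members passed the 10 CPM filter in both libraries, but 1 HepG2 read is 43.8 CPM, so any read passes there.

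**Figure D1:**
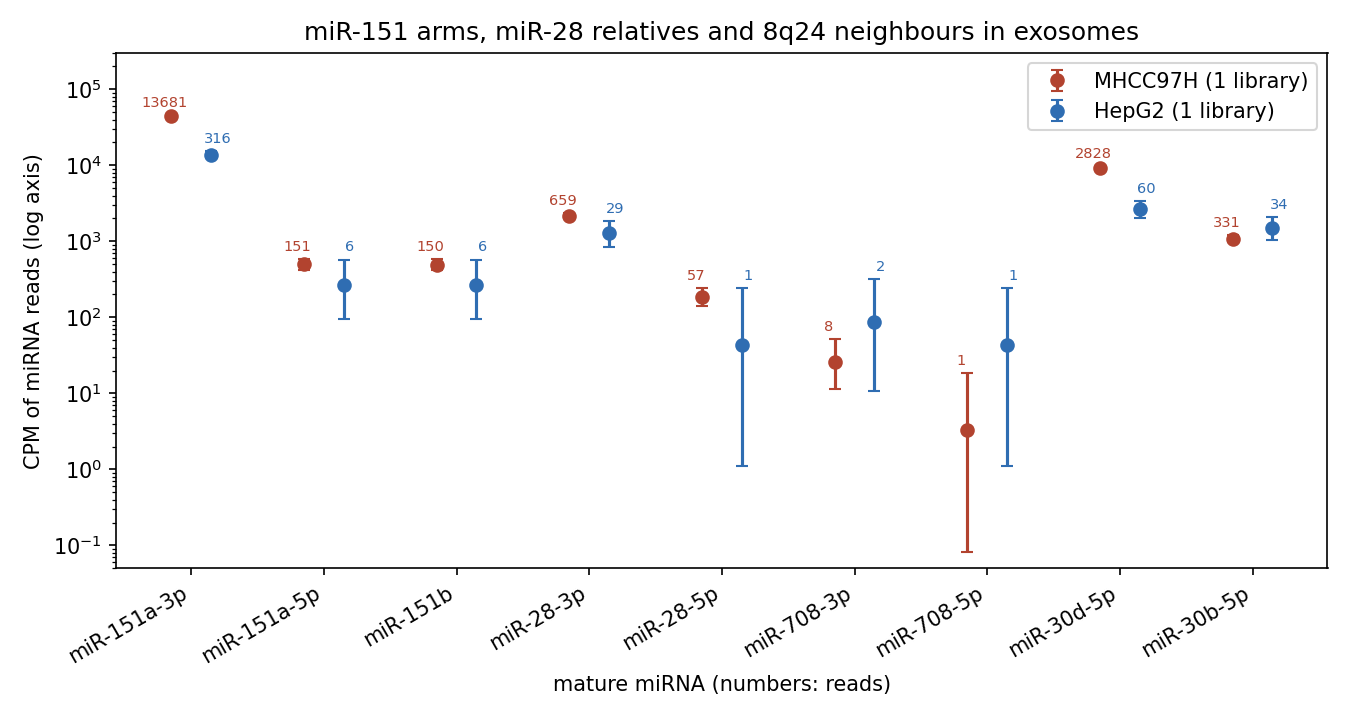
Level of the miR-151 members, the miR-28 and miR-708 arms and the 5p arms of miR-30d and miR-30b in the MHCC97H library (left point of each pair) and the HepG2 library (right point), in CPM on a log axis, with 95% Poisson intervals and the read count above each point. miR-151a-3p is the highest of those plotted in both libraries, and the intervals widen where HepG2 holds 6 reads or fewer.

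By rank, miR-151a-3p was the 3rd most abundant miRNA of MHCC97H and the 10th of HepG2. In MHCC97H its neighbors were let-7f-5p above (53515 CPM) and miR-100-5p below (41671 CPM), and no other miRNA had a counting interval that overlapped its own. In HepG2 its neighbors were miR-25-3p above (16031 CPM, interval 14430 to 17760) and miR-15b-5p below (13052 CPM, 11612 to 14622). Both intervals overlapped that of miR-151a-3p (12357 to 15454), as did 5 in all, so its place there is uncertain within counting error. miR-151a-5p was at rank 140 in both libraries, level with miR-203a-3p at 151 reads in MHCC97H. In HepG2 it was tied at 6 reads with miRNAs such as miR-125a-5p and miR-432-5p. With miR-151b left out, its counting interval overlapped those of 39 miRNAs in MHCC97H and 707 in HepG2. Its rank in HepG2 is thus hardly defined.

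The miRNAs whose levels lay closest to miR-151a-3p in both libraries, among the 117 with 10 or more reads in each, were miR-100-5p, miR-27b-3p and let-7g-5p. Closeness was the distance on log2 CPM across the 2 libraries, and was 0.62, 0.86 and 0.93 for these miRNAs. miR-100-5p had 41671 CPM in MHCC97H and 9067 CPM in HepG2 (ratio 4.60, 4.01 to 5.30). let-7g-5p, of the growth-restraining let-7 family, had 26881 CPM in MHCC97H and 9417 CPM in HepG2 (ratio 2.85, 2.49 to 3.28). miR-27b-3p was nearer to equal, at 27009 CPM in MHCC97H and 18878 CPM in HepG2 (ratio 1.43, 1.30 to 1.58). Closest to miR-151a-5p were miR-15b-3p (distance 0.75), miR-361-5p (1.22) and miR-32-5p (1.27), whose ratio intervals all included 1. Among the same 117 miRNAs the median ratio was 1.11, and 25 had a ratio above that of miR-151a-3p. With 2 libraries, closeness describes 2 points and no shared pattern.

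**Figure D2:**
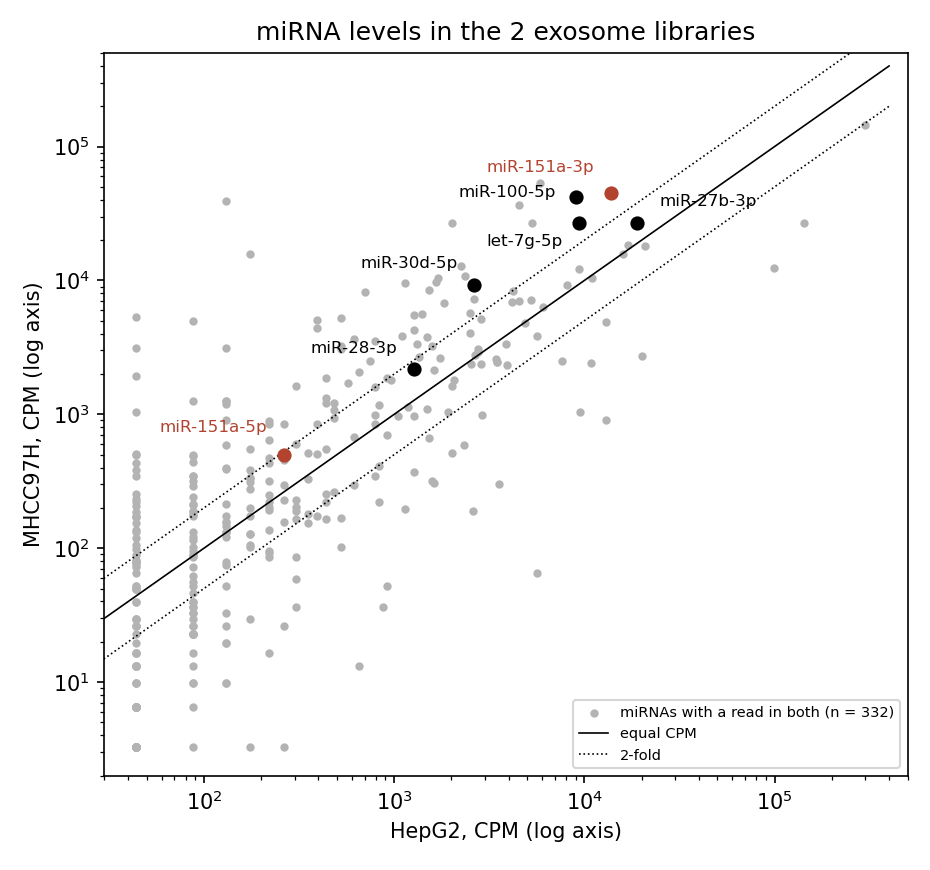
Level of each miRNA with a read in both libraries (332 grey or colored points), with MHCC97H on the vertical and HepG2 on the horizontal log axis, both in CPM. miR-151a-3p lies above the upper dotted line of a 2-fold difference, miR-151a-5p lies just under it, and the columns at the left are miRNAs with 1, 2 or 3 HepG2 reads.

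The ratio between the arms does not depend on how the libraries are scaled, because both arms are counted in the same library. Of the reads of both arms, the 3p arm took 98.9% in the MHCC97H library, with a 95% exact interval of 98.7 to 99.1%. In the HepG2 library it took 98.1% (96.0 to 99.3%). This is 90.6 reads of miR-151a-3p for each read of miR-151a-5p in MHCC97H and 52.7 in HepG2. As given above, the 5p reads may include some from chromosome 14. The share differed by 0.77 percentage points, with an interval of -0.42 to 2.93. The odds of 3p over 5p in MHCC97H were 1.72 times those in HepG2 (95% exact conditional interval 0.62 to 3.87). The 3p arm thus passed the calling rule and the 5p arm did not, but a difference between the arms in their ratios was not detectable with 6 reads of miR-151a-5p in HepG2.

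The table lists both arms for 184 hairpins, and 79 of these had 10 or more reads over both arms in each library. The 3p arm led in 31 of the 79 in MHCC97H and in 31 in HepG2, and the leading arm was the same in both libraries for 73. A 3p share above that of miR-151a was seen for 5 hairpins in MHCC97H and for 15 in HepG2. Whichever arm led, its share was above that of miR-151a for 19 hairpins in MHCC97H and for 46 in HepG2. The median share of the leading arm was 94.6% in MHCC97H and 99.2% in HepG2, where 35 of the 79 minor arms had no read. The 98.9% of miR-151a was thus above the median in MHCC97H. Its 98.1% in HepG2 was below the median there, but its interval (96.0 to 99.3%) included that median.

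Of the 79 hairpins, 42 had a read of each arm in each library. Of these, 40.5% had an interval of the odds ratio that excluded 1, and miR-151a was not among them. Among the 12 hairpins with 10 or more reads of each arm in each library, the interval excluded 1 for 9. The 3 highest odds of 3p over 5p, MHCC97H over HepG2, were 17.9 for miR-15b (9.21 to 38.7), 11.6 for miR-21 (8.28 to 16.6) and 5.99 for miR-126 (3.51 to 9.98). The 3 lowest were 0.063 for miR-148a (0.030 to 0.12), 0.091 for miR-142 (0.055 to 0.15) and 0.65 for miR-99b (0.30 to 1.50), the last with an interval that included 1. miR-151a, with 6 reads of its 5p arm in HepG2, did not enter these 12.

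**Figure D3:**
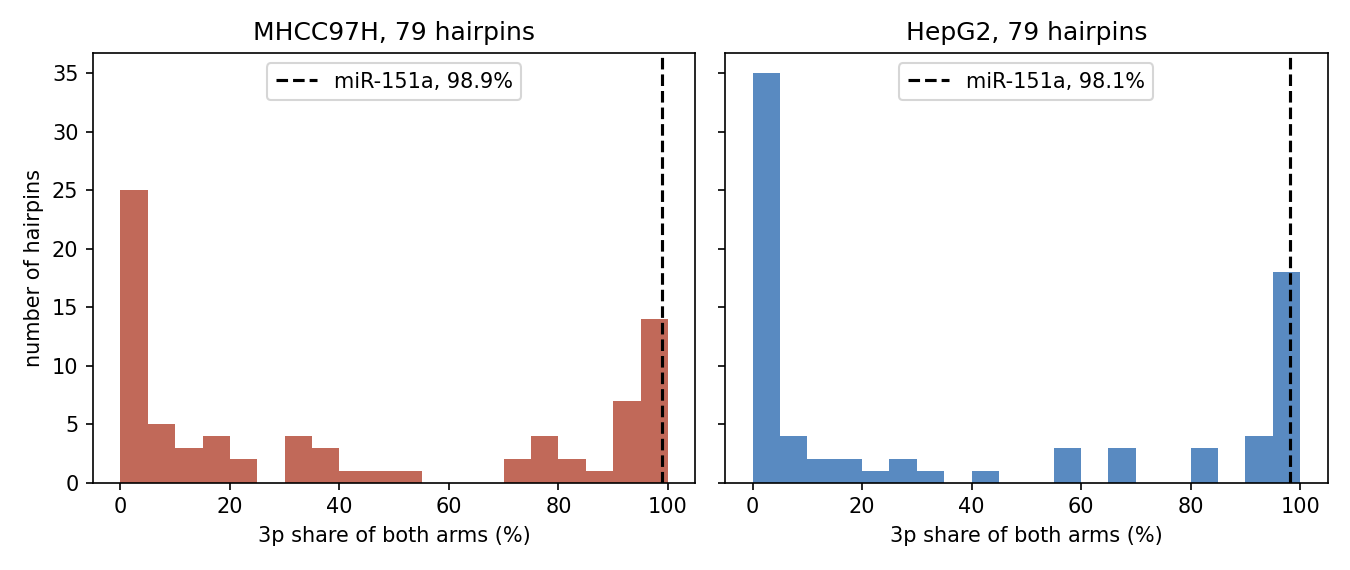
Number of hairpins by the 3p share of the reads of both arms (percent, bins of 5 points) in MHCC97H (left) and HepG2 (right), for the 79 hairpins with 10 or more reads in each library. The dashed line marks miR-151a, at 98.9% in MHCC97H and 98.1% in HepG2, in the last bin of both.

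The relatives were far less abundant. miR-28-3p had 659 reads (2165 CPM) in MHCC97H and 29 reads (1270 CPM) in HepG2. The ratio was 1.70 (1.18 to 2.56), under the 2-fold rule. miR-28-5p had 57 reads in MHCC97H and 1 in HepG2 (ratio 4.27, 0.74 to 172). Like miR-151a, miR-28 was read mostly from its 3p arm, with 92.0% in MHCC97H (89.8 to 93.9%) and 96.7% in HepG2 (82.8 to 99.9%). miR-708 was close to the limit of detection, at 8 reads of 3p and 1 of 5p in MHCC97H, and 2 of 3p and 1 of 5p in HepG2. Of these 4 arms, 0 were called in either direction. For each read of miR-28-3p there were 20.8 reads of miR-151a-3p in MHCC97H and 10.9 in HepG2 (ratio 1.91, 1.25 to 2.82).

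Of the other miRNAs of band 8q24, 7 arms were listed and 5 passed the 10 CPM filter. Of these, 3 (60%) were called higher in MHCC97H and 0 in HepG2, against 20.4% and 9.02% over all 543 miRNAs. The calls come from the hairpins of miR-30d and miR-30b, so they are not independent. Those of miR-30d-3p and miR-30b-3p had 0 HepG2 reads, so these arms passed the filter only through MHCC97H. With 0 HepG2 reads, any count meets the 2-fold part of the rule. The 60% thus describes 5 arms and is not a result about the band. The median log2 ratio (1 CPM added) was 1.82, against 1.12 over all miRNAs that passed. Both sets include miRNAs with 0 HepG2 reads. miR-30d-5p, which was described as promoting invasion of hepatocellular carcinoma, had 2828 reads (9289 CPM) in MHCC97H and 60 reads (2628 CPM) in HepG2. The ratio was 3.53 (2.74 to 4.64). There were 4.84 reads of miR-151a-3p for each read of miR-30d-5p in MHCC97H and 5.27 in HepG2. Their ratio was 0.92 (0.68 to 1.22), an interval that included 1. miR-30d-3p had 128 reads in MHCC97H and 0 in HepG2. Set against 3 HepG2 reads it was 3.20-fold higher, and the lower end of the exact interval was 2.56. miR-30b-3p had 81 reads in MHCC97H and 0 in HepG2, 2.02-fold higher against 3 HepG2 reads, with a lower end of 1.61, under 2-fold. Not all values of the band leaned to MHCC97H, since miR-30b-5p had 331 reads (1087 CPM) in MHCC97H and 34 reads (1489 CPM) in HepG2 (ratio 0.73, 0.51 to 1.07). miR-4664-3p had 74 reads in MHCC97H and 2 in HepG2 (ratio 2.77, 0.74 to 23.3). miR-937-3p and miR-939-5p had 1 read each in MHCC97H and 0 in HepG2.

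For other miRNAs in introns of protein-coding genes, a chosen list of 38 names was used, which does not hold every such miRNA. Of its arms, 65 passed the filter, with 14 (21.5%) called higher in MHCC97H and 5 (7.69%) in HepG2. These shares are near the 20.4% and 9.02% over all 543 miRNAs. Their median log2 ratio was 0.98, against 1.12 over all. The most abundant on this list were miR-27b-3p, given above, miR-378a-3p (18288 CPM in MHCC97H and 17038 CPM in HepG2), and miR-25-3p (15707 CPM in MHCC97H and 16031 CPM in HepG2). They were followed by miR-93-5p (4937 CPM in MHCC97H and 13052 CPM in HepG2) and miR-15b-5p (913 CPM in MHCC97H and 13052 CPM in HepG2), tied in HepG2. miR-151a-3p exceeded each of these in MHCC97H, while in HepG2 miR-27b-3p, miR-378a-3p and miR-25-3p exceeded it. Of miRNAs reported to promote growth or invasion of hepatocellular carcinoma, 22 other arms passed, with 10 (45.5%) called higher in MHCC97H and 2 (9.09%), miR-21-5p and miR-93-5p, in HepG2. Their median log2 ratio was 1.88. The summed level of the list went the other way, at 235928 CPM in MHCC97H and 365906 CPM in HepG2, most of it miR-21-5p. The calls for MHCC97H include miR-30d-3p with 0 HepG2 reads, and miR-221-5p and miR-25-5p with 1 each. The lists overlap, and both miR-30d arms are also on the 8q24 list. The list of reported restrainers had 15 arms that passed, with 4 (26.7%) called higher in MHCC97H, 1 (6.67%) in HepG2 and a median of 0.49. The list of restrainers summed to 92795 CPM in MHCC97H and 178004 CPM in HepG2. Both of these lists thus had calls in each direction.

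The size of the miR-151a-3p ratio depended on what the reads were scaled to. It was 3.13 with edgeR's trimmed mean of M-values (TMM), 2.73 against the geometric mean of 7 miRNAs often used as references (miR-16-5p, miR-25-3p, miR-93-5p, miR-103a-3p, miR-191-5p and both arms of miR-423) and 2.05 when the top 10 miRNAs of each library were kept out of the sum. With the median log2 ratio of the 543 miRNAs set to 0, which moves every ratio by 1.12 on the log2 scale, it was 1.50 (log2 0.58) and no longer called. That centring also turned the split of all calls to 54 for MHCC97H and 97 for HepG2. With library totals it was 111 for MHCC97H and 49 for HepG2. The median of the 543 includes miRNAs with 0 HepG2 reads, whose log2 ratio depends on the 1 CPM added. Over the 117 miRNAs with 10 or more reads in each library, the median log2 ratio was 0.15. Centring on that value, a choice made after seeing the data, gave a miR-151a-3p ratio of 2.93, which was called. The sum without those top miRNAs gave 72 for MHCC97H and 73 for HepG2. Set against single reference miRNAs within each library, miR-151a-3p was higher in MHCC97H beyond counting error for 4 of 7. The ratio ran from 0.89 per read of miR-191-5p (0.62 to 1.23) to 9.81 per read of miR-16-5p (7.99 to 12.0). Per read of miR-21-5p, the most abundant miRNA of both libraries, it was 6.75 (6.01 to 7.59).

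**Figure D4:**
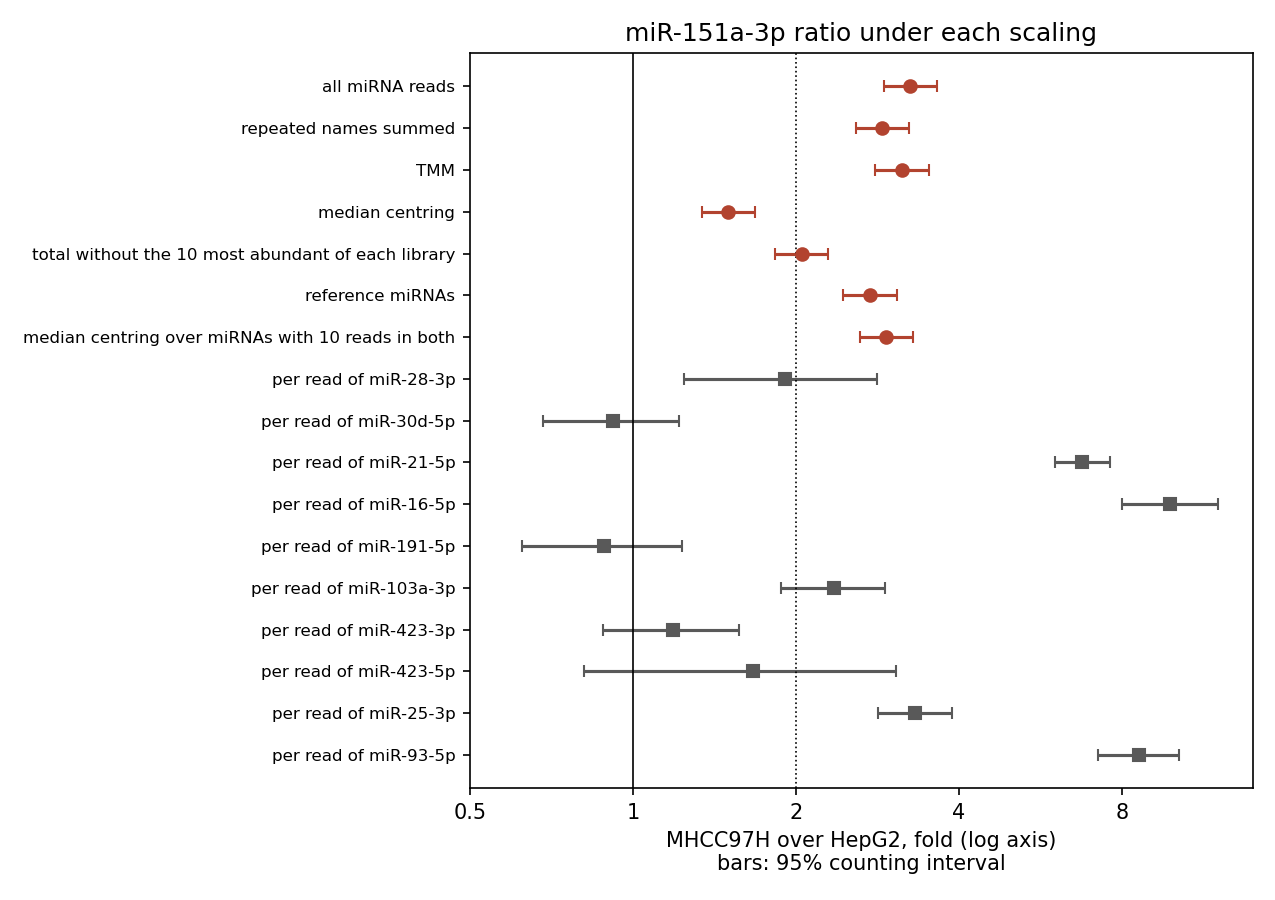
Fold of miR-151a-3p, MHCC97H over HepG2, on a log axis, under each scaling of the libraries (red circles) and per read of single miRNAs in the same library (grey squares), with 95% counting intervals. The solid line marks equal levels and the dotted line 2-fold. The circles lie between 1.50 and 3.25, and the squares between 0.89 and 9.81.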

How the data were processed

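Small RNA libraries (15 to 35 nt inserts) were made with an NEBNext kit after TRIzol extraction and read on a NextSeq 500, per the labels' protocols and design text. Per the file headers, the authors' values are unnormalized read counts for each mature miRNA, with a column for each library. Per the submitters' processing notes, cutadapt and Bowtie were used. The sources used here give neither versions nor mismatch setting, and name no miRBase release or genome build. No molecular identifiers are described, so reads are not independent molecules. Arms differ in sequence, and ligation in library preparation can favor some sequences, so a level of 1 arm against another is less secure than the same arm between libraries.

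The 915 entries hold 793 names. For the 78 repeated names, 30 of them with unequal counts, the highest count was used once. CPM, exact Clopper-Pearson intervals of shares and of ratios, and Poisson intervals of counts were computed at 95%. With 1 library a line there is no test between lines. The procedure was tested on simulated data that held counting error only, so variation between cultures or library preparations was not assessed. Alternatives changed the scaling, the handling of repeats, the pseudocount and the filter. Named miRNAs were the members, the miR-28 family, the 8q24 list, rank neighbors, the 3 nearest in level, the most changed arm pairs and up to 4 most abundant of other lists. Members, lists and rules were chosen with earlier results of these data known. TMM factors came from edgeR 4.0.16 in R 4.3.3. All else was computed in Python 3.11.15 with scipy 1.17.1, pandas 2.3.3 and numpy 2.4.6, and plotted with matplotlib 3.10.9.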

Additional observations from a re-analysis of the deposited data

How the results depend on the processing

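The miR-151a-3p ratio of MHCC97H over HepG2, log2 1.70 with library totals, kept its direction under all 7 alternatives and was called in 6. Among these, the pseudocount of 10 CPM took over the main call, and it is too small to move a ratio at this level. The ratio moved beyond its counting interval to log2 1.53 with repeated names summed and 1.45 with reference miRNAs. Also beyond it were 1.03 when the top 10 miRNAs of each library were kept out of the sum and 0.58 with median centring. Median centring over the 117 miRNAs with 10 or more reads in each library, chosen after seeing the data, gave 1.55. The miR-151a-5p ratio, log2 0.92, was called under none of its 7 alternatives, where the pseudocount again took over the main call. Its sign changed under 1, median centring (log2 -0.20), within an interval that spans 0 in any case. Calls over all miRNAs numbered 54 for MHCC97H and 97 for HepG2 with median centring, and 72 for MHCC97H without those top miRNAs, against 111 for MHCC97H and 49 for HepG2. Summing repeated names gave 100 for MHCC97H and 64 for HepG2. By construction, a scaling shifts all log2 ratios by 1 amount. The arm share difference was 0.77 points with repeats summed, which cannot change it because each arm has 1 entry. It was 0.92 points with 0.5 reads added to each arm. Depth limits the 5p arm most, at 6 reads in HepG2. No paired analysis was possible because each line has 1 library, and no replicate could be left out.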
